A study of Bos taurus with 6 samples.

Results

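Fatty acid beta-oxidation was followed through 32 genes in the whole blood of fat-1 transgenic and wild type cows. The genes were taken by name. Every probe other than a control whose gene name, or whose bracketed symbol in the probe description, was one of the 32 was included, and each gene was represented by its brightest probe over the 6 arrays. The array held 88 probes for the 32 genes, of 43653 probes and 14652 gene symbols in all. They comprised 6 genes of the carnitine shuttle, 12 mitochondrial enzymes, 8 peroxisomal enzymes, 3 electron transfer proteins, and a last group of 3, the kinase PDK4 and the uncoupling proteins UCP2 and UCP3.

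Blood was drawn from the jugular vein of 6 female cows and each animal was hybridised to 1 single-colour Agilent bovine array. In the fat-1 group were 3 animals carrying a transgene for a fatty acid desaturase of the nematode Caenorhabditis elegans, which makes omega-3 from omega-6 fatty acids. The wild type group was 3 cows without it. Animal 1 of the fat-1 group had reached 3.5 years and every other animal 3 years. The promoter of the transgene and the founder clone or clones of the fat-1 animals are not stated in the labels. The fat-1 arrays shared slide 1 and the wild type arrays slide 2, so slide and genotype cannot be told apart.

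Beta-oxidation shortens fatty acids by removing acetyl-CoA units from the carboxyl end in a repeated cycle of dehydrogenation, hydration, dehydrogenation and thiolysis. Long-chain acyl groups enter mitochondria as carnitine esters, whereas peroxisomes take very long and branched chains, shorten them, and pass the products on. Unsaturated chains need auxiliary isomerases and reductases in both organelles, and electrons from the mitochondrial acyl-CoA dehydrogenases pass through the electron transfer flavoprotein to the respiratory chain. In blood these enzymes are found in leukocytes and platelets, while mature red cells have lost both organelles.

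Levels are given as log2 processed intensity relative to the 75th percentile of the same array, in the order animal 1, 2 and 3 of each group, and each difference subtracts the wild type mean from the fat-1 mean, with the standard error (SE) of the limma fit. A level of one probe is not compared with that of another probe. Testing took in the 26823 probes that reached well above background on 3 or more arrays, with Benjamini-Hochberg adjustment over all of them. Among those, 46 passed an adjusted p of 0.05, namely 21 higher and 25 lower in fat-1 blood, which is 0.0783% and 0.0932% of the probes tested. The 75th percentile of intensity ran from 611 to 1065 over the arrays, and the correlation between 2 arrays over probes lay between 0.955 and 0.984. The animal standing most apart was wild type animal 2, with the highest value of the 6 animals at 37.9% of all probes tested and at 17 of 30 oxidation genes. It also had the lowest value at 25.1% of all probes tested and at 7 of the 30. Blood was checked by its defining markers, and HBB of red cells, CD14 of monocytes, CD3E of T cells and CD79A of B cells were well above background on all 6 arrays. CSF3R of neutrophils, also meant for this check, had no probe found under that name. In bulk blood, fewer cells of a type and less RNA per cell cannot be told apart.

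None of the oxidation genes passed the adjusted threshold. Of the 32, 30 were tested, and the lowest adjusted p was 0.270, for CPT1B. At limma's unadjusted p under 0.05 there was 1 of 30, CPT1B, which stood lower in fat-1 blood, while 5.45% of the brightest probes of all 10468 genes tested were higher by that rule and 6.33% lower. The 3 fat-1 animals lay wholly above the 3 wild type animals at 1 gene, ECI2, and wholly below them at 5 genes, CPT1B, ACADSB, HADHA, HADHB and HADH. Over all genes those shares were 7.17% higher and 13.3% lower, beside 1 and 5 of 30 here. No oxidation gene was both at least 2-fold different and at an unadjusted p under 0.05, as were 3.58% of all genes. Differences were below 0 at 18 of the 30, or 60%, against 58.1% of all genes, and ran from -0.91 to 0.58 with a median of -0.09. The median over all probes tested was -0.06 and over all genes -0.08. Leaving out wild type animal 2 moved the median of the 30 genes to 0.02, and leaving out wild type animal 3 moved it to -0.22 and the count of genes lying wholly below to 9. A count without overlap can only stay or rise when an animal is left out, so the 9 cannot be set against the 13.3%.

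**Figure D1:**
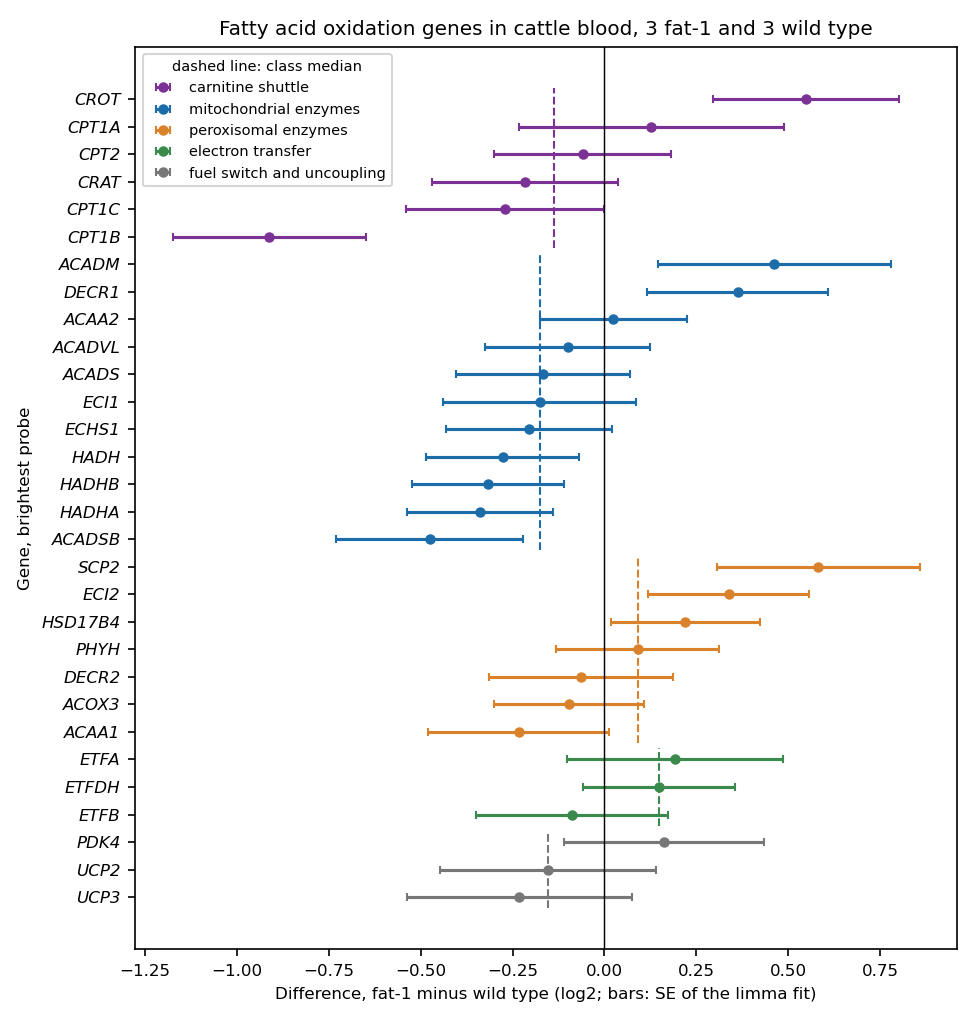
Difference between fat-1 and wild type blood (log2, x axis) at the brightest probe of each of the 30 measured genes, coloured by role class, with bars for the SE of the limma fit and dashed lines at the class medians. CPT1B at -0.91 and SCP2 at 0.58 mark the ends, and the medians are -0.18 for the mitochondrial and 0.09 for the peroxisomal enzymes.

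The carnitine shuttle begins with carnitine palmitoyltransferase 1, the malonyl-CoA-sensitive gate of mitochondrial oxidation, which has a liver form, a muscle form and a brain form. The probes for the liver form CPT1A and the brain form CPT1C interrogate related stretches and are shown side by side, since the description of the CPT1A probe names a CPT1C-like transcript. Both are written 5′ to 3′, and capitals mark the 31 bases that are identical among the 53 aligned ones, or 58.5%. On the build Btau_3.1 of the file headers they lie at chr29:47982088-47982147, minus strand, and at chr18:56062478-56062537, plus strand. Whether they fall in exons was not looked up, for want of a gene annotation on that build here.
CPT1A: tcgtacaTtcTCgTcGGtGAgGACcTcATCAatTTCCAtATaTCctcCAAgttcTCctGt
CPT1C: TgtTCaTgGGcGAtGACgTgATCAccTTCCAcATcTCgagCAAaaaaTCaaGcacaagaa

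CPT1A levels were -0.18, -0.06 and -1.19 in fat-1 blood and -0.69, -0.11 and -1.01 in wild type blood. Animal 3 was the lowest of its group on both sides and the groups overlapped fully, with a difference of 0.13 ± 0.36 (SE, n = 3 per group). At the second CPT1A probe, 2 fat-1 arrays and no wild type array were well above background. The fat-1 levels there were -5.19, -2.42 and -4.38, with animal 2 far above the others. Their mean, which includes the array not well above background, was 1.81-fold above the lowest measurable wild type signal. The probe was not tested. CPT1C levels were -1.37, -2.04 and -1.77 in fat-1 and -1.28, -1.23 and -1.85 in wild type animals. These overlapped too, with a difference of -0.27 ± 0.27, and the other 2 CPT1C probes were above background on no array.

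The muscle form CPT1B had the difference with the smallest p of the 30 genes. Its brightest probe read -2.75, -3.10 and -2.99 in the fat-1 animals and -2.03, -1.61 and -2.47 in the wild type animals. All fat-1 animals were below all wild type animals, and wild type animal 3 came closest to them. The difference was -0.91 ± 0.26, or 1.88-fold lower, with an unadjusted limma p of 0.00798 and an adjusted p of 0.270. The second tested CPT1B probe did not follow, with levels of -3.91, -3.99 and -3.61 in fat-1 and -3.76, -4.29 and -4.32 in wild type animals and a difference of 0.28 ± 0.24. With the mean of both probes the difference was -0.31, at an adjusted p of 0.516. Another CPT1B probe was above background on 2 fat-1 arrays and no wild type array and was not tested. The mean of all 3 fat-1 arrays there was 1.09-fold above the lowest measurable wild type signal. The first 30 bases of the 2 tested probes are given because the probes disagree, and the files give neither a position. Probe a is the brightest one, and no base is capitalised.
CPT1B a: attctcgttgccgccccgcatctgttctca
CPT1B b: gatgctaataaaaataaggctgtatggttc

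The remaining shuttle enzymes exchange carnitine for CoA behind the gate or in other compartments. CPT2, which rebuilds acyl-CoA in the mitochondrial matrix, had a difference of -0.06 ± 0.24, and CRAT, the acetyltransferase, one of -0.22 ± 0.25, in each case with overlapping animals. CROT, the peroxisomal octanoyltransferase that exports shortened chains, had levels of -1.30, -1.84 and -1.12 in fat-1 and -1.97, -2.16 and -1.78 in wild type blood. Fat-1 animal 2 lay just below wild type animal 3, and the other fat-1 animals were above the whole wild type group. The difference was 0.55 ± 0.25, with an adjusted p of 0.398. At the second CROT probe it was 0.51 ± 0.22 with no overlap, from -3.01 to -2.51 against -3.31 to -3.12, and an adjusted p of 0.388. The class median over the 6 genes was -0.14, with 4 of 6 below 0. By their brightest probes, CROT and CPT1B stood at the ends of their class. The other tested CPT1B probe, at 0.28, was on the side of CROT.

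**Figure D2:**
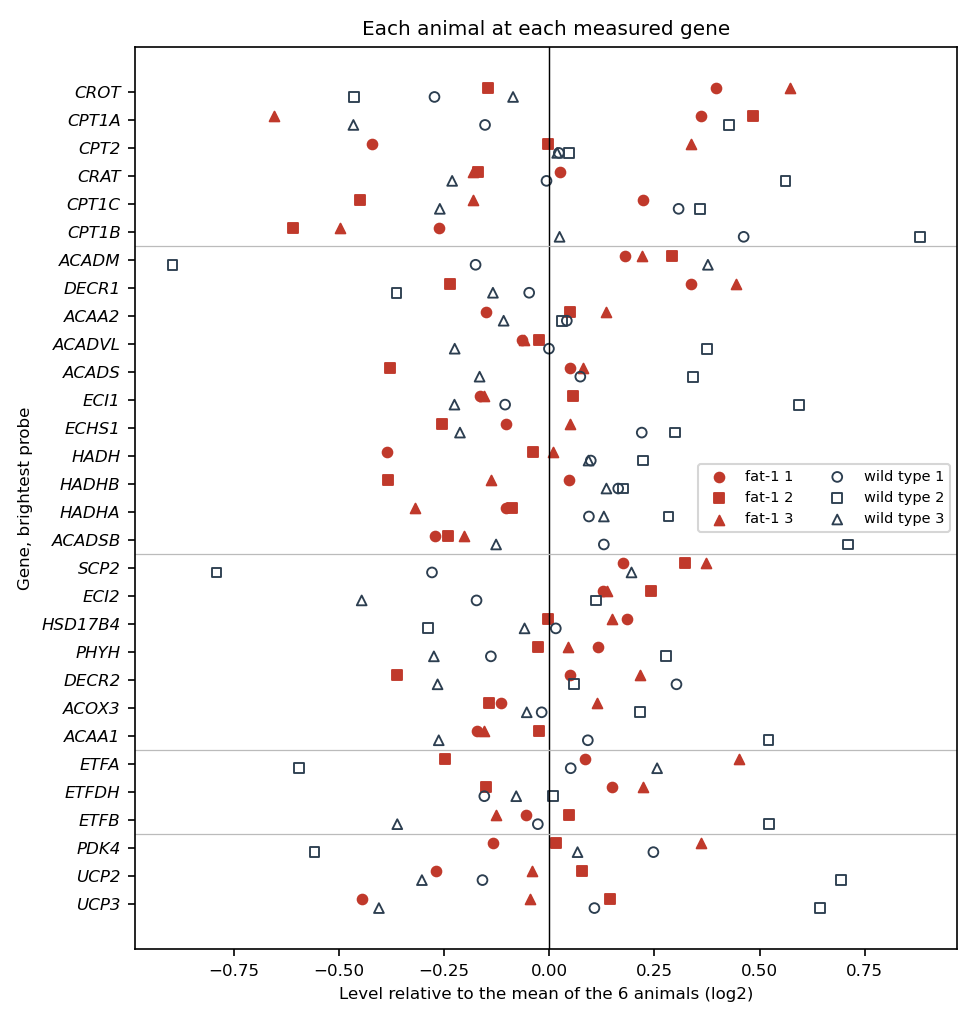
Level of every animal (log2, relative to the mean of the 6 animals, x axis) at the brightest probe of each measured gene, with filled red symbols for the 3 fat-1 and open symbols for the 3 wild type animals. Grey lines part the role classes. All fat-1 symbols lie left of all wild type symbols at CPT1B, ACADSB, HADHA, HADHB and HADH and right of them at ECI2. Wild type animal 2 is the outermost on the right at 17 of the 30 genes and on the left at 7.

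Among the mitochondrial enzymes, 8 of the 11 measured genes had differences below 0 and 3 above, with a median of -0.18. That median kept its sign in every alternative computed, from -0.30 without wild type animal 3 to -0.03 with quantile normalization, and it was -0.04 without wild type animal 2. In those settings, in the same order, the median over all probes tested was also below 0, at -0.13, -0.02 and -0.02. At 4 of the 11 the fat-1 animals lay wholly below the wild type animals, against the 13.3% of all genes given above. These were HADHA and HADHB, the alpha and beta subunits of the trifunctional protein that carries out the last 3 steps on long chains, HADH, the 3-hydroxyacyl-CoA dehydrogenase for shorter chains, and ACADSB, which oxidises short branched chains. None passed the adjusted threshold.

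HADHA read 2.79, 2.80 and 2.57 in fat-1 blood and 2.99, 3.18 and 3.02 in wild type blood. The highest fat-1 animal was below the lowest wild type animal, with a difference of -0.34 ± 0.20 and an adjusted p of 0.456. All 3 HADHA probes lacked overlap, with differences of -0.40 to -0.31, where 12.7% of all probes tested lay wholly lower. HADHB, whose gene neighbours HADHA on chromosome 11, read 0.73, 0.30 and 0.55 in fat-1 and 0.85, 0.86 and 0.82 in wild type animals. Wild type values lay close together and above each fat-1 value, with a difference of -0.32 ± 0.21 and an adjusted p of 0.485. Its 3 probes gave -0.39 to -0.32, 2 of them without overlap. Both trifunctional subunits were lower at every one of their probes, without passing the adjusted test. Probes of a gene read the same RNA, and differences were below 0 at 55.4% of all probes tested.

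Probes of both subunits that span an intron in the files' coordinates are printed, since a probe across a splice junction reads spliced transcript. They lie at chr11:75392624-75393357, plus strand, and chr11:75324775-75325404, minus strand, on Btau_3.1. The HADHB probe is the brightest one, and the HADHA probe is the one with a difference of -0.40 ± 0.19. Of the 85 probes with a position, 13 were split in this way.
HADHA: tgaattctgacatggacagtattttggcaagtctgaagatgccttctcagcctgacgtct
HADHB: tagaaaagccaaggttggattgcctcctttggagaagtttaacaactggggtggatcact

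HADH levels were 0.62, 0.96 and 1.01 in fat-1 and 1.10, 1.23 and 1.10 in wild type animals. The gap between the groups was narrow, and the difference was -0.28 ± 0.21, with -0.31 ± 0.23 and overlap at the second probe. ACADSB, with 1 probe, read 0.02, 0.05 and 0.09 in fat-1 and 0.42, 1.00 and 0.16 in wild type animals. The fat-1 values were nearly equal and the wild type values spread widely above them, with a difference of -0.48 ± 0.25 and an adjusted p of 0.430. Without wild type animal 2 the ACADSB difference was -0.24.

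ACADM, the medium-chain acyl-CoA dehydrogenase, leaned the other way. It read 2.06, 2.17 and 2.10 in fat-1 and 1.71, 0.99 and 2.26 in wild type blood. Wild type animal 3 was the highest of all 6 and wild type animal 2 the lowest, so the groups overlapped, and the difference was 0.46 ± 0.32 with an adjusted p of 0.502. Without wild type animal 2 it was 0.13, and without wild type animal 3 it was 0.77. A dimmer ACADM probe had no overlap, with levels of -1.84, -1.18 and -1.86 against -2.32, -2.65 and -2.0, a difference of 0.70 ± 0.28 and an adjusted p of 0.371. The third probe gave 0.53 ± 0.33. The sequence of the probe without overlap, at chr3:73901804-73901863, minus strand, on Btau_3.1, is printed because it had the largest of the 3 differences.
ACADM: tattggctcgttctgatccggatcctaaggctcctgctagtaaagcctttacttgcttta

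DECR1, the reductase that removes extra double bonds of polyunsaturated chains in mitochondria, read 0.51, -0.07 and 0.61 in fat-1 and 0.12, -0.19 and 0.04 in wild type blood. Fat-1 animals 1 and 3 were above the wild type group and animal 2 fell within it, with a difference of 0.36 ± 0.25 and an adjusted p of 0.499. Its 3 probes gave 0.36 to 0.40, but by the files' positions all 3 overlap one another, by 48, 31 and 19 bases, and so read nearly the same stretch. ECI1, the mitochondrial isomerase for unsaturated chains, had a difference of -0.18 ± 0.26, with wild type animal 2 far above the other 5 animals. The other dehydrogenases had -0.10 ± 0.22 for the very-long-chain ACADVL, whose 4 probes gave -0.28 to -0.10, and -0.17 ± 0.24 for the short-chain ACADS. ECHS1, the enoyl-CoA hydratase, had -0.20 ± 0.23 and the thiolase ACAA2 0.02 ± 0.20. Animals overlapped at each of these 5 genes. The long-chain dehydrogenase ACADL was above background on no array at any of its 3 probes and was not tested.

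The peroxisomal enzymes had differences on both sides of 0, with 4 of the 7 measured genes above and 3 below, and a median of 0.09. This median was -0.02 with normexp background correction and -0.02 without wild type animal 3. SCP2, whose longer product is the thiolase for branched chains, had the highest difference of the 30 genes. It read 1.78, 1.92 and 1.97 in fat-1 and 1.32, 0.81 and 1.79 in wild type animals. Wild type animal 3 fell within the fat-1 range and the other 2 wild type animals below it, with a difference of 0.58 ± 0.28 and an adjusted p of 0.407. Without wild type animal 2 the difference was 0.33. A second probe, split over an intron at chr3:99983474-99985869, minus strand, on Btau_3.1, had no overlap. It read 0.55, 0.41 and 0.57 against -0.28, -0.41 and 0.30, with a difference of 0.64 ± 0.24 and an adjusted p of 0.363. The third probe, upstream of both at chr3:100051878-100051937, gave 0.28 ± 0.28 with overlap. Which SCP2 product each probe reads was not looked up, so none of these differences is assigned to the thiolase. The split probe is printed as the one with the largest SCP2 difference.
SCP2: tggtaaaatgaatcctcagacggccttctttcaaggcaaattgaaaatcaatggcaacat

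HSD17B4, the bifunctional enzyme of the middle steps of the peroxisomal cycle, read 2.84, 2.66 and 2.81 in fat-1 and 2.67, 2.37 and 2.60 in wild type blood. Fat-1 animal 2 fell just within the wild type range, and the difference was 0.22 ± 0.20, with 0.19 to 0.26 over its 3 probes. PHYH, which starts alpha-oxidation of phytanic acid, had 0.09 ± 0.22, and its other probes 0.19 and 0.26. ECI2, the peroxisomal isomerase, was the gene at which the fat-1 animals lay wholly above the wild type animals, at -3.67, -3.55 and -3.66 against -3.97, -3.68 and -4.24. It was dim, being well above background on 3 fat-1 and 2 wild type arrays, and its groups were parted by a narrow margin. The ECI2 difference was 0.34 ± 0.22 with an adjusted p of 0.485. Its sign did not hold with normexp background correction, at -0.24, nor at the other tested probe, at -0.09 ± 0.38.

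On the other side of 0 among the peroxisomal genes, the thiolase ACAA1 had a difference of -0.23 ± 0.25, DECR2, the peroxisomal counterpart of DECR1, -0.06 ± 0.25, and ACOX3, the oxidase for branched chains, -0.10 ± 0.20. Animals overlapped at all 3. A dim second ACOX3 probe, well above background on 1 fat-1 and 3 wild type arrays, read -4.37, -4.65 and -4.76 in fat-1 and -4.19, -4.05 and -4.13 in wild type animals. Its groups did not overlap, and its difference was -0.47 ± 0.21 with an adjusted p of 0.388. EHHADH, the other bifunctional enzyme of peroxisomes, was well above background on 1 fat-1 array and no wild type array and was not tested.

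The peroxisomal median exceeded the mitochondrial median by 0.27. In the main fit these medians were the values of single genes, PHYH, which belongs to alpha-oxidation, and ECI1. The gap between the class medians kept its sign in all 16 alternatives, from 0.11 with normexp to 0.34 when a gene's probes were averaged, and it ran from 0.17 to 0.34 when animals were left out in turn. These alternatives reuse the same 6 animals, and the gap was not tested. Taken within each animal, the mean of the 7 peroxisomal genes minus the mean of the 11 mitochondrial genes, each gene relative to its mean over the 6 animals, was 0.11, 0.11 and 0.12 in fat-1 blood. The same measure was -0.07, -0.15 and -0.12 in wild type blood. Centring on the 6 animals makes the group means of this measure equal and opposite. Its sign within a group therefore carries no information, and only the difference of 0.23 between the groups does. This measure was chosen after the values were seen and was not tested. With normexp it was 0.08, 0.06 and 0.07 against 0.06, -0.14 and -0.13, so wild type animal 1 reached the fat-1 values. When a gene's probes were averaged it was 0.15, 0.06 and 0.04 against -0.05, -0.12 and -0.09. The fat-1 values then lay further apart, and the difference between the groups was smaller, at 0.17. Within single classes the animals mixed more, with carnitine shuttle means of 0.05, -0.15 and -0.10 in fat-1 and 0.06, 0.30 and -0.17 in wild type blood.

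**Figure D3:**
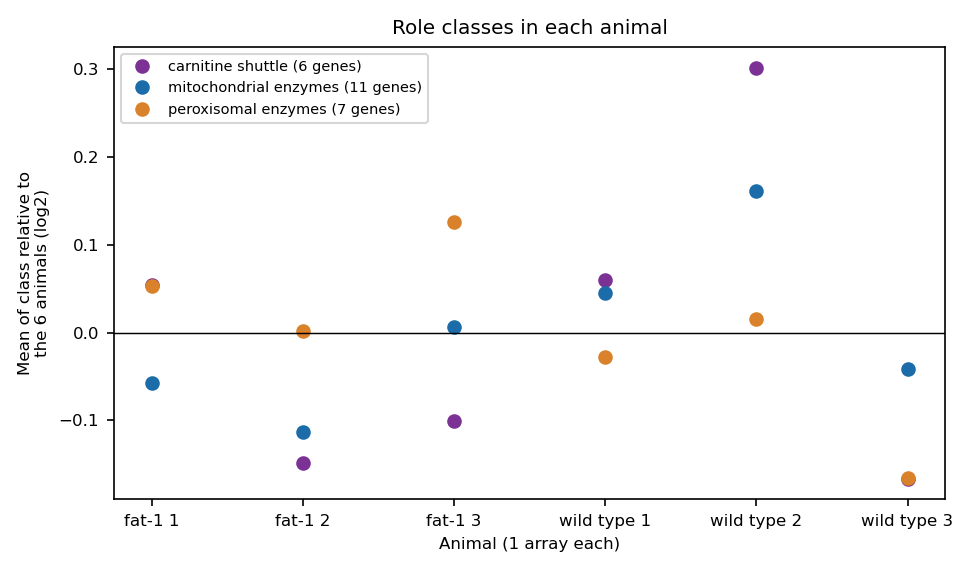
Mean level of the carnitine shuttle (6 genes), mitochondrial (11 genes) and peroxisomal (7 genes) enzymes in each animal (log2, relative to the mean of the 6 animals, y axis). Points for peroxisomal enzymes lie above those for mitochondrial enzymes in the 3 fat-1 animals, by 0.11 to 0.12, and below them in the 3 wild type animals. Centring each gene on the 6 animals makes the group means of this gap equal and opposite. Only the difference between the groups can be read.

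Electron transfer proteins carry electrons from the acyl-CoA dehydrogenases to ubiquinone. The flavoprotein subunit ETFA had a difference of 0.19 ± 0.29, with 0.15 to 0.19 over its 3 probes. Its partner ETFB had -0.09 ± 0.26, with -0.26 to -0.09 over 3 probes, and 0.12 with quantile normalization. The oxidoreductase ETFDH, which hands the electrons on, read -0.45, -0.74 and -0.37 in fat-1 and -0.75, -0.59 and -0.67 in wild type blood, with a difference of 0.15 ± 0.21. Animals of the groups overlapped at all 3 genes, whose median was 0.15.

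PDK4, the kinase that shuts pyruvate dehydrogenase and so favours fat as fuel, read -1.31, -1.17 and -0.82 in fat-1 and -0.93, -1.74 and -1.11 in wild type blood. These values overlapped, and the difference was 0.16 ± 0.27. Its 6 tested probes, of 8, gave -1.09 to 0.23, and the lowest of them was well above background on 1 fat-1 and 2 wild type arrays. UCP2, an uncoupling protein of the inner mitochondrial membrane found in leukocytes, had -0.15 ± 0.29 and the same at its second probe, with wild type animal 2 the highest. UCP3, the muscle form, was well above background on 2 arrays of each group, with -0.23 ± 0.31.

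Probes of 1 gene mostly gave 1 sign. Of the 88 probes 71 were tested, and of 25 genes with at least 2 tested probes, 20 had all differences on one side of 0. The exceptions were CPT1B, CPT2, ACAA2, ECI2 and PDK4. The median range within a gene was 0.09. At an unadjusted limma p under 0.05 there were 5 of 71 probes, or 7.04%, against 12.8% of all probes tested, and none passed the adjusted threshold. Probes of a gene are read from the same RNA and are not replicates, and by position a pair at ACAA1 shares 34 bases, a pair at PDK4 54 bases, and the DECR1 probes all overlap.

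**Figure D4:**
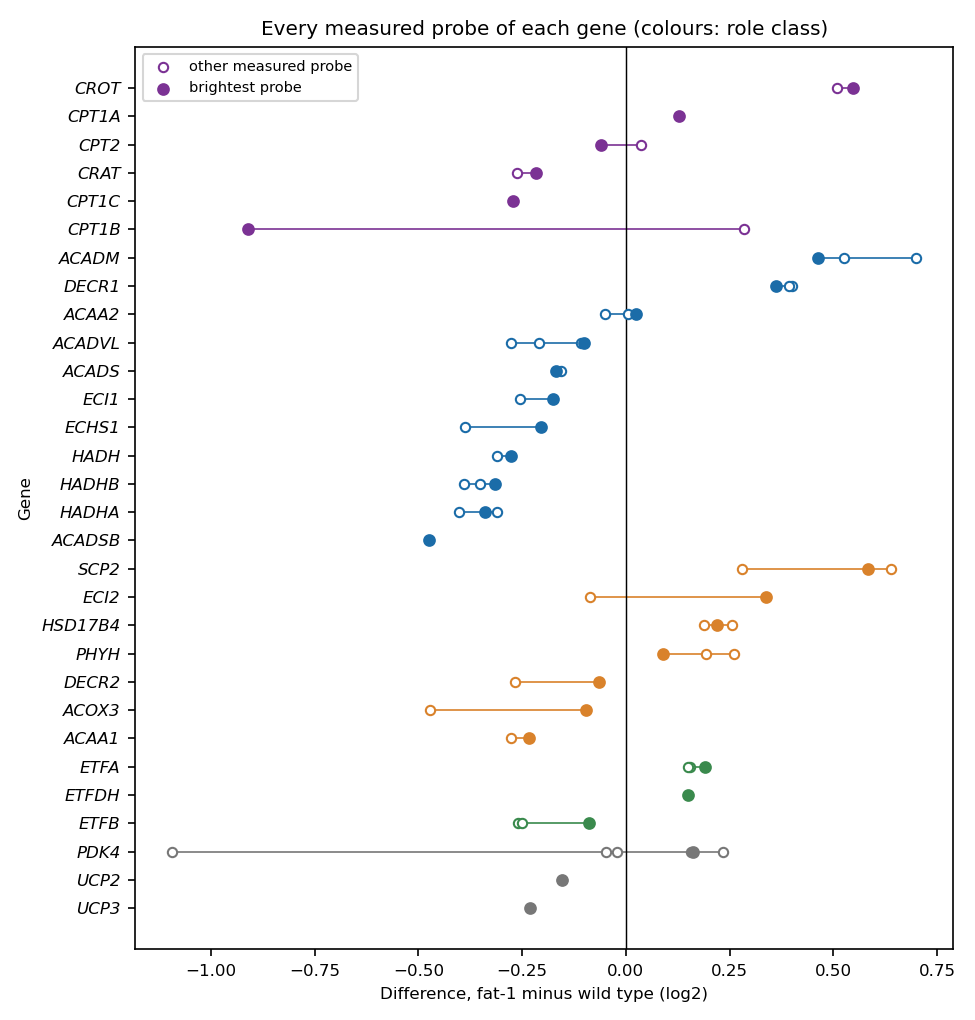
Difference (log2, x axis) at every tested probe of each gene, with a filled point for the brightest probe, open points for the others and a line over their range, coloured by role class as in the plot of differences. CPT1B (-0.91 and 0.28) and PDK4 (-1.09 to 0.23) have the widest ranges. HADHA, HADHB, ACADM, DECR1, HSD17B4, SCP2, PHYH, ETFA and ETFB each keep 3 probes on one side of 0, and ACADVL keeps 4. The DECR1 probes overlap in position.

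A further list held 37 other genes of fatty acid oxidation and ketone metabolism, of which 30 were tested. None passed the adjusted threshold, and the median was -0.07. At an unadjusted limma p under 0.05, 2 of the 30 were higher and 1 lower, beside 5.45% and 6.33% of all genes. The smallest p belonged to OXCT1, which activates ketone bodies, at 0.72 ± 0.22 (adjusted p = 0.282). Among those with small p values were also SLC25A20, the carnitine-acylcarnitine translocase of the mitochondrial inner membrane, at -0.52 ± 0.19 (adjusted p = 0.357), and HACL1, a peroxisomal lyase of alpha-oxidation, at 0.42 ± 0.20. OXCT1 read -0.38, -0.41 and -0.75 in fat-1 and -1.10, -1.43 and -1.18 in wild type blood. SLC25A20 read 2.47, 2.39 and 2.53 against 2.91, 3.08 and 2.95. Groups did not overlap at any of these 3, with OXCT1 and HACL1 higher and SLC25A20 lower in fat-1 blood. Over the list, 4 of 30 lay wholly higher and 2 wholly lower, beside 7.17% and 13.3% of all genes.

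Of 24 regulators of fuel use, such as the PPAR receptors and their partners, 21 were tested, with a median of -0.10 and none past the adjusted threshold. PDK2, a sister kinase of PDK4, stood lower at 2.53, 2.85 and 2.43 in fat-1 against 3.16, 3.77 and 3.02 in wild type animals. Its groups did not overlap, with a difference of -0.71 ± 0.26 and an adjusted p of 0.357. The deacetylase SIRT1 had 0.66 ± 0.34, the mitochondrial transcription factor TFAM 0.47 ± 0.25 and PPARG 0.32 ± 0.24, all with overlap. Among reference genes ACTB had -0.21, GAPDH -0.14 and PPIA -0.26, none past the adjusted threshold.

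Cell markers also varied between the same animals. For gamma-delta T cells, 6 of 7 markers were tested and all 6 had differences below 0, with a median of -1.45. At an unadjusted limma p under 0.05, 5 of the 6 were lower, beside 6.33% of all genes. The mean level of these markers relative to the 6 animals was -1.53, -0.05 and -0.33 in fat-1 and 0.50, 0.87 and 0.54 in wild type blood. For red cell precursors 8 of 9 were tested, 5 above and 3 below 0, from -1.44 to 1.72, with a median of 0.94 and means of -0.01, 0.69 and 0.11 against -1.04, 1.04 and -0.79. The lowest of them, SLC4A1, named after its values were seen, had -1.44 ± 0.32 without overlap and an adjusted p of 0.151. Platelet markers, with 5 of 8 tested, had a median of 0.50, NK cell markers, with 6 of 6, 0.46, and monocyte markers, with 10 of 10, 0.27. Platelet markers ran from 0.06 to 0.76, NK cell markers from -0.81 to 2.08 and monocyte markers from -0.60 to 0.82. T cell markers, with 10 of 10 tested, had -0.26 and B cell markers, with 5 of 8, -0.28. T cell markers ran from -0.86 to 0.73 and B cell markers from -0.85 to 0.36. Neutrophil markers had 0.11 with 6 of 12 tested, and 4 of the 12 were above background on no array, while 2 of 6 eosinophil markers were tested, both above 0 with a median of 0.73. By name, HBB had a difference of 1.20, CD14 -0.07, CD3E -0.60 and CD79A -0.39, and no marker in these lists passed the adjusted threshold. Their part in the differences of the oxidation genes was not tested.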

How the data were processed

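The scanner files hold spot intensity, background-subtracted in the deposited files per the file headers, and flags of 0 or 1 for spots above background, saturated or outlying, used as deposited. The scanner software, per the submitters' processing notes, was Agilent Feature Extraction 10.7.1.1. The deposited value table holds log2 values that matched their own arrays at r of 0.999 or above. It was used as an alternative, and the sources used here do not name its software. Values of wild type animal 2 were saved with 3 significant digits, against 7 elsewhere.

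The 75th percentile of each array was subtracted from its log2 processed intensity. Each probe took the mean of its spots, leaving out 32 probes that carried outlier flags. The 26823 probes well above background on at least 3 arrays were tested in R 4.3.3 for a group effect alone, by limma 3.58.1 (lmFit, then eBayes), after a check on simulated data. Folds above the lowest measurable signal compare the brighter group's mean with the lowest signal above background on the dimmer arrays. That mean includes arrays not well above background, so these folds are not strict lower bounds. The exact permutation test of 3 against 3 cannot go below 0.1 and was not used. The number of arrays limits the precision. Replicate numbers of the labels correlated at 0.12, 0.19 and 0.01 between groups and were not taken as pairs.

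All 32 genes are named, each by its brightest probe, with up to 4 genes of each related list by smallest p and 3 reference genes. A gene that this rule would name is not reported here. The members and lists were chosen with earlier results of these data known. Of the 88 probes, 81 had an accession in a RefSeq table of the assembly ARS-UCD2.0, all under the same symbol. Alternatives covered background correction, scaling, filter, probe choice, variance model, array weights, replicate block and each animal left out.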

Additional observations from a re-analysis of the deposited data

How the results depend on the processing

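No oxidation gene passed the adjusted threshold under any alternative but limma's array weights, whose estimation did not converge and which called 8087 probes in all. With those weights 3 genes passed (CPT1B, CROT and SCP2), 4 were higher and 6 lower at an unadjusted p under 0.05, and the electron transfer median was 0.012. Probes past the threshold numbered 117 with normexp, 124 with median scaling, 125 with an intensity trend, 16 with quantile normalization and with the authors' table, 14 without a filter and 8 to 55 with an animal left out, against 46. With the replicate block, 105 probes and no oxidation gene passed, and CROT joined CPT1B at an unadjusted p under 0.05. Genes higher at that p numbered 1 with normexp, the trend, the mean of probes or the filter on all 6 arrays and 0 to 2 with an animal left out, and genes lower 0 with the mean of probes and 1 to 2 with an animal left out. Genes wholly above numbered 3 with quantile normalization and the authors' table, 0 with normexp, median scaling and the filter on all 6 arrays, and 1 to 5 with an animal left out. Genes wholly below numbered 3 with median scaling and the mean of probes and 5 to 9 with an animal left out. Counts of genes wholly above or below can only stay or rise when an animal is left out. The gap of the peroxisomal over the mitochondrial median was 0.11 with normexp, 0.34 with the mean of probes and 0.19 with the filter on all 6 arrays, and 0.17 to 0.34 with an animal left out. With an animal left out, medians ran from -0.22 to 0.02 for all 30 genes, -0.23 to -0.02 for the shuttle, -0.30 to -0.04 for mitochondrial and -0.02 to 0.13 for peroxisomal enzymes, 0.01 to 0.26 for electron transfer and -0.34 to 0.03 for the last group. The cause of these moves was not tested.

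Signs turned as follows. With quantile normalization and the authors' table, the differences were 0.0081 and 0.0092 for CPT2, 0.11 and 0.11 for ACADVL, 0.0023 and 0.0013 for ACOX3, and 0.12 and 0.12 for ETFB. ECI2 had -0.24 with normexp. ACAA2 had -0.019 with median scaling, -0.0066 with the mean of probes and -0.023 with array weights, and PDK4 -0.10 with the mean of probes and -0.17 with array weights. Array weights also gave 0.032 for ECI1 and 0.10 for UCP2. Other probes gave 0.28 for CPT1B, 0.036 for CPT2, -0.087 for ECI2, -0.049 for ACAA2, and -0.021, -0.048 and -1.09 for PDK4. With an animal left out, ranges crossed 0 for CPT1A (-0.083 to 0.49), CPT2 (-0.24 to 0.14), CRAT (-0.39 to 0.010), ACADVL (-0.24 to 0.063), ACAA2 (-0.038 to 0.10), ECI1 (-0.33 to 0.077), DECR2 (-0.21 to 0.10), PHYH (-0.024 to 0.25), ETFA (-0.058 to 0.37), ETFB (-0.29 to 0.15), PDK4 (-0.077 to 0.33), UCP2 (-0.34 to 0.15) and UCP3 (-0.49 to 0.033). No slide term could be fitted, since each slide held 1 group. With 3 animals per group, differences near their SE cannot be told from 0, and signals near background limit ECI2, UCP3, EHHADH and ACADL.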
